A study of Mus musculus with 14 samples.

Results

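Expression of 9 genes that form or maintain the uterus was followed in the ovaries and uteruses of aged mice. They were the Wnt ligands Wnt4, Wnt5a and Wnt7a, the R-spondin receptor Lgr5, the gland factor Foxa2 and the Mullerian duct transcription factors Pax2, Pax8, Emx2 and Lhx1. The genes were listed by name for their known roles, with earlier results of these data in view, and all 9 were found among the 21853 genes measured. Both organs of 3 OC and 4 OT mice had been sequenced, 14 libraries of RNA-seq in 4 groups: OC ovary (n = 3), OT ovary (n = 4), OC uterus (n = 3) and OT uterus (n = 4). All were C57BL/6J females aged 28 weeks. Every mouse had received a pair of gonadotropins, 10 IU each and 48 h apart, before treatment. The OT mice were then injected through the tail vein 6 times, 4 days apart, with 1 µL per g of AMSC-CM, the conditioned medium of mesenchymal stem cells from human amniotic membrane, which had been pooled from 3 donors. The OC mice received saline in its place. Each library was made from ovary or uterus tissue of 1 mouse and holds many cell types, so a lower level in a library can come from fewer cells of a type or from less RNA per cell, and these cannot be told apart.

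The uterus and oviduct develop from the Mullerian duct, an epithelial tube that forms beside the Wolffian duct. Lhx1, Pax2, Pax8 and Emx2 are needed for this tube to form or to persist, and Wnt4 is also needed for it to form. Wnt ligands are secreted proteins that bind Frizzled receptors, and R-spondins bound to Lgr receptors strengthen that signal. Later, Wnt7a from the epithelium and Wnt5a from the stroma pattern the uterus, and Foxa2 is required for the uterine glands, whose secretions support implantation. In the ovary, Wnt4 is needed for female differentiation of the gonad.

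Levels are given in FPKM (fragments per kilobase of transcript, relative to the mapped fragments of the library), which is scaled to gene length, so that levels of different genes can be set side by side. The depth of the libraries is unknown, since the deposited estimates do not let fragments be counted back. Differences were tested with limma on log2(FPKM + 0.1), a scale on which low genes show too small a fold change. A gene was tested when its mean was at least 0.5 FPKM over the 7 libraries of the tissue, or of at least 1 of both tissues where tissues were compared. A gene was called changed between OT and OC when the absolute log2 difference was at least 1 and the unadjusted p was at most 0.05, the cutoffs of the study. It was called different between tissues at an absolute log2 difference of at least 1 and an adjusted p under 0.05. 8 lists of Wnt pathway, Mullerian duct and gland genes, 121 genes in all, were followed beside the 9 genes.

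On mm10, the genes lie, by GENCODE M21, at chr4:137277489-137299726 (Wnt4, plus strand), chr14:28504750-28527448 (Wnt5a, plus strand), chr6:91363981-91411363 (Wnt7a, minus strand), chr2:148042877-148046969 (Foxa2, minus strand), chr10:115450311-115587780 (Lgr5, minus strand). The 4 duct factors are at chr19:44756045-44837871 (Pax2, plus strand), chr2:24420560-24475599 (Pax8, minus strand), chr19:59458372-59465357 (Emx2, plus strand), chr11:84518284-84525535 (Lhx1, minus strand). All 9 are protein-coding genes.

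The bases before the transcription starts of Wnt4, Wnt7a and Foxa2 are shown because these genes stood for the 3 patterns between the organs: higher in the ovary, higher in the uterus, and not called different. They are RefSeq sequences of GRCm38.p6, cut to the bases ahead of both the RefSeq and the GENCODE start, 5′ to 3′ on the strand of the gene. The windows are chr4:137277385-137277488 on the plus strand for Wnt4 (104 bases), chr6:91411364-91411603 on the minus strand for Wnt7a (240 bases) and chr2:148046970-148047219 on the minus strand for Foxa2 (250 bases). Capitals mark matches, on either strand, to the GC box GGGCGG, the CCAAT box CCAAT, the TATA box TATAAA or the TCF/LEF core CTTTGA.
Wnt4: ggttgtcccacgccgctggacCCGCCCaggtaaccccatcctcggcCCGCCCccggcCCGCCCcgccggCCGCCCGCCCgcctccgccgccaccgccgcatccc
Wnt7a: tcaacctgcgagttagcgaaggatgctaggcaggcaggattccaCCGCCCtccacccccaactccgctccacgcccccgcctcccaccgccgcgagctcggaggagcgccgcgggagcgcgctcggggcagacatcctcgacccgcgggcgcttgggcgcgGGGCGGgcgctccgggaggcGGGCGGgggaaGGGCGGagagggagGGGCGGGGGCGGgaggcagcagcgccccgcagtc
Foxa2: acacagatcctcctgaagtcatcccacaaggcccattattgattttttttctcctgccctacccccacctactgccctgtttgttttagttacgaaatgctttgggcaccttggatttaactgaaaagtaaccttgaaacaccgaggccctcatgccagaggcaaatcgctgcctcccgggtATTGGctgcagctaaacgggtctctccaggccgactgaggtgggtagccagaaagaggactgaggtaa
The Wnt4 window held 5 GC boxes, of which the last 2 overlap, and the Wnt7a window held 6. A GC box was found in 11% of all 32851 windows cut to 104 bases and in 31.3% of those cut to 240 bases. GC content was 83.7% before Wnt4 and 77.1% before Wnt7a, against 50.8% before Foxa2, whose window held 1 CCAAT box (33.8% of windows of that length). Before cutting, the value for all 32851 windows was 52.4%, and other start windows listed for Foxa2, not shown, had 67.2% and 54.4%. None of the 3 windows shown held the letters CTTTGA, which were in 6.51%, 13.5% and 13.8% of windows cut to these lengths. Wnt4 and Wnt7a, which had opposite tissue patterns, both held GC boxes.

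The library labels were first set against marker genes. Markers of steroid cells and granulosa cells were high in all ovaries and markers of endometrial stroma were high in all uteruses, but the ovary libraries also held RNA of the reproductive tract. Ovgp1, a secreted glycoprotein of the oviduct, was between 424 and 942 FPKM in the ovary libraries and between 3.86 and 169 FPKM in the uterus libraries. Hoxa10, a positional gene of the uterus, ranged in the ovary libraries from 0.572 FPKM in OT1 to 53.4 FPKM in OC2. In the uterus, the 7 stromal markers summed to 832 to 877 FPKM in OC and 513 to 718 FPKM in OT, while 7 adipocyte markers summed to 59.3 to 232 FPKM in OC and 1130 to 10800 FPKM in OT. 8 markers of stratified epithelium, which lines the vagina rather than the uterus, summed to 2.72 to 13.1 FPKM in OC and 43.8 to 774 FPKM in OT. The OT1 uterus stood apart. It had the highest total (577494 FPKM, against a median of 437216 in OC uteruses), the highest adipocyte sum, and a urothelial marker sum of 157 FPKM, with 4.43 to 25.3 FPKM in the other uteruses.

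Between the organs, 5 of the 8 tested genes differed, and in opposite directions: Wnt4 and Lgr5 were higher in the ovary, and Emx2, Pax2 and Wnt7a were higher in the uterus. Over all 14913 tested genes, 20.6% were called different. Wnt7a was tested only through its uterus level, as its ovary mean was 0.417 FPKM. With a mean of at least 0.5 FPKM required in both organs, 4 of 7 tested genes differed. The groups of 7 libraries did not overlap for Wnt4, Lgr5 and Emx2, 3 of the 8, against 25.1% of all tested genes. The median difference of the 8, uterus minus ovary, was 0.81 on the log2 scale, and that of all tested genes was -0.01.

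Wnt4 was the most abundant of the 9 genes in every ovary and among the lowest in the uterus. It was at 53.1, 44.3 and 54.0 FPKM in the OC ovaries, and at 76.5, 60.5, 54.8 and 58.5 FPKM in the OT ovaries. In the uteruses it was at 0.858, 1.30 and 0.942 FPKM in OC, and at 1.49, 3.54, 3.59 and 1.13 FPKM in OT. The lowest ovary was thus more than an order of magnitude above the highest uterus, and Wnt4 was 35.2-fold higher in the ovary (log2 difference -5.14, standard error 0.23, adjusted p = 1.38e-09 by limma).

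Wnt5a was the most abundant of the 3 ligands in the uterus. It was at 31.0, 35.5 and 29.5 FPKM in OC ovaries and at 31.6, 25.9, 40.3 and 29.4 FPKM in OT ovaries. In OC uteruses it was at 78.8, 61.7 and 63.4 FPKM, and in OT uteruses at 27.6, 39.1, 43.9 and 42.8 FPKM. The uterus was 1.59-fold above the ovary (log2 difference 0.67, standard error 0.12, adjusted p = 0.000503 by limma), short of the 2-fold cutoff, and 6 of 7 mice had the higher value in the uterus, OT1 being the exception.

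Wnt7a, the epithelial ligand, was low in both organs. The ovaries were at 0.552, 0.666 and 0.337 FPKM in OC and 0.143, 0.213, 0.486 and 0.525 FPKM in OT. The uteruses were at 3.70, 0.979 and 0.979 FPKM in OC and 0.695, 1.90, 0.577 and 1.74 FPKM in OT. Although the 7 ovaries and 7 uteruses overlapped, the uterus was higher within each of the 7 mice, by 2.81-fold in the fit (log2 difference 1.49, standard error 0.39, adjusted p = 0.00539 by limma).

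Lgr5, the R-spondin receptor and a stem cell marker of several epithelia, shared the direction of Wnt4. It was at 5.70, 5.00 and 6.12 FPKM in OC ovaries and 8.96, 5.75, 5.35 and 6.95 FPKM in OT ovaries. In the uterus it was at 0.234, 1.08 and 1.64 FPKM in OC and 0.584, 0.142, 0.969 and 0.856 FPKM in OT. The ovary was 8.22-fold higher (log2 difference -3.04, standard error 0.39, adjusted p = 2.14e-05 by limma), with no overlap of the organs.

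Among the duct transcription factors, Emx2 was the most evenly expressed within an organ. It was at 7.76, 10.8 and 8.68 FPKM in OC ovaries and 6.77, 6.24, 8.42 and 9.50 FPKM in OT ovaries. The uteruses held 35.6, 29.8 and 29.7 FPKM in OC and 17.7, 23.9, 24.6 and 28.1 FPKM in OT. Every uterus lay above every ovary, by 3.25-fold on average (log2 difference 1.70, standard error 0.13, adjusted p = 1.71e-07 by limma).

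Pax2 varied far more. Its ovary levels were 0.907, 2.01 and 0.769 FPKM in OC and 0.268, 0.340, 0.792 and 0.662 FPKM in OT. Its uterus levels were 16.4, 5.06 and 4.75 FPKM in OC and 0.217, 7.64, 7.76 and 7.53 FPKM in OT. The OT1 uterus lay below every ovary, and the other 6 uteruses lay above all ovaries. The uterus was 6.06-fold higher (log2 difference 2.60, standard error 0.67, adjusted p = 0.00538 by limma).

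Pax8, a close relative of Pax2, was at 6.26, 10.8 and 7.71 FPKM in OC ovaries and 6.87, 4.94, 6.49 and 8.42 FPKM in OT ovaries. It was at 15.6, 26.8 and 22.1 FPKM in OC uteruses and 2.36, 15.5, 9.25 and 23.6 FPKM in OT uteruses. The log2 difference between organs was 0.95 (standard error 0.40, adjusted p = 0.058 by limma). It reached the 2-fold cutoff without the OT1 mouse, at 1.29 with an unadjusted p = 0.000174.

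Foxa2 was at a like level in both organs. It was at 1.63, 1.38 and 1.46 FPKM in OC ovaries and 1.35, 1.96, 1.64 and 2.44 FPKM in OT ovaries. In the uterus it was at 1.38, 2.63 and 2.58 FPKM in OC and 0.438, 0.794, 3.38 and 2.31 FPKM in OT. The log2 difference was 0.03, with a 95% interval from -0.76 to 0.81, and 3 of 7 mice were higher in the uterus. Lhx1, which acts at the start of duct formation, was listed at 0 in 12 of 14 libraries, at 0.135 FPKM in the OC1 ovary and at 0.0511 FPKM in the OT3 uterus, and was not tested.

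**Figure D1:**
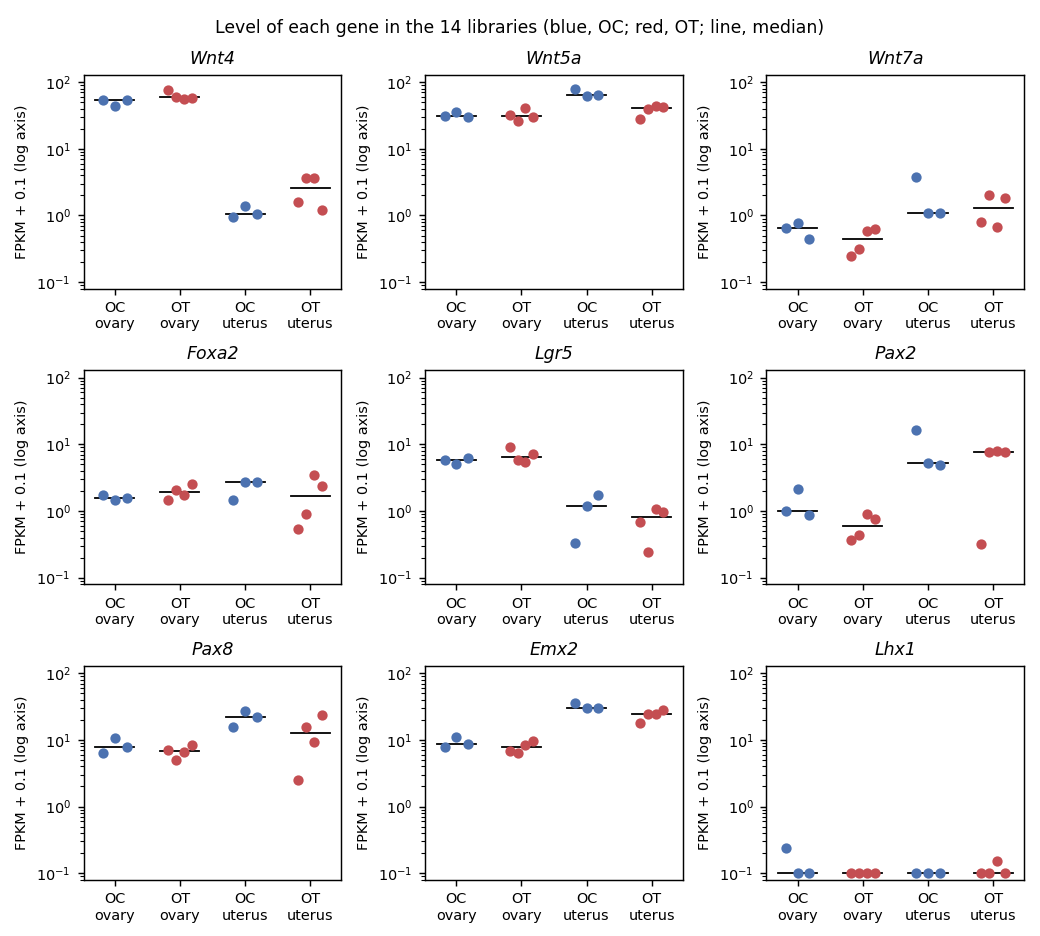
Level of each of the 9 genes in the 14 libraries, as FPKM + 0.1 on a log axis, by group. Points are single mice, blue for OC and red for OT, and lines are group medians. Wnt4 is at 44.3 FPKM or more in every ovary and at 3.59 FPKM or less in every uterus, Emx2 is higher in every uterus, and the OT1 uterus is the low point of Pax2 at 0.217 FPKM.

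The other genes of the pathway also split between the organs. Of 112 genes of the lists that were not among the 9, 96 were tested, 30 were higher in the uterus and 13 higher in the ovary, 44.8% in all. Over all 14913 tested genes the share was 20.6%, and the lists were chosen with earlier results of these data known. The ligands had 1 of 9 tested others higher in the uterus and 4 in the ovary, among them Wnt10b (log2 difference -5.81, standard error 0.26), Wnt6 (-4.30, standard error 0.30) and Wnt10a (-4.17, standard error 0.30). Of 14 receptors and coreceptors, 3 were higher in the uterus: Fzd10 (2.07), the Wnt5a receptor Ror2 (1.56) and Fzd2 (1.35). R-spondins, the ligands of Lgr5, were divided. Rspo2 was higher in the ovary (-2.45), and Rspo3 (2.32) and Rspo1 (1.51) were higher in the uterus, where Lgr5 was low. The related receptor Lgr6 was higher in the uterus (1.03). Lgr4 was higher in the ovary (-1.43) but was at 16.5 to 22.1 FPKM in the uteruses. Among 8 tested secreted inhibitors, Sfrp4 (-4.51), Notum (-2.60) and Sfrp1 (-2.42) were higher in the ovary, and Frzb (1.94) and Sfrp2 (1.47) in the uterus. Of 25 other duct and patterning genes, 14 were higher in the uterus. The largest were Hoxa11 (4.53), Hoxa13 (4.16, listed at 0 in every ovary) and Hoxa10 (3.96). The receptor of the hormone that removes the duct in males, Amhr2, was the 1 that was higher in the ovary (-3.93). All of these had an adjusted p under 0.05 by limma. Of the genes named here, Fzd10 and Hoxa13 were tested only through their uterus level. Wnt10a, Rspo2 and Notum were tested only through their ovary level. The counts include these genes and others of the kind.

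To ask whether AMSC-CM was followed by a different expression of these genes in the uterus, OT was compared with OC. None of the 8 tested genes passed the cutoffs, where 2.9% of all 14151 tested genes did. Wnt5a and Emx2 had an unadjusted p of at most 0.05, as did 8.2% of all tested genes, and for both every OT uterus was below every OC uterus. Such a separation was found in 11.9% of tested genes, and no tested gene had an adjusted p under 0.05 by limma (smallest 0.266, with 1160 genes at an unadjusted p of at most 0.05). 7 of the 8 estimates were below 0 and the median was -0.56, with 0.01 over all tested genes. Without OT1, 6 of the 8 were below 0 and the median was -0.29.

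Wnt5a was at 68.0 ± 9.43 FPKM in OC and 38.3 ± 7.46 FPKM in OT uteruses (SD, n = 3 and 4). The log2 difference was -0.84 (standard error 0.19, 95% interval -1.28 to -0.40, unadjusted p = 0.00219, adjusted p = 0.396 by limma), a 1.79-fold lower level that did not reach the 2-fold cutoff. It stayed between -0.98 and -0.69 over 16 alternatives. 5 of the 7 stromal markers were likewise below every OC uterus in every OT uterus. Per 100 FPKM of the summed stromal markers, Wnt5a was at 8.98, 7.21 and 7.62 FPKM in OC and at 5.38, 6.14, 6.34 and 5.96 FPKM in OT, so the groups did not overlap. Per 100 FPKM of the 7 epithelial markers it was at 12.0, 14.6 and 16.3 FPKM in OC and 9.91, 8.44, 16.5 and 10.8 FPKM in OT, and the groups overlapped. These ratios were added after the values were seen and were not tested.

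Emx2 was at 31.7 ± 3.39 FPKM in OC and 23.6 ± 4.32 FPKM in OT uteruses (SD, n = 3 and 4), a log2 difference of -0.44 (standard error 0.18, unadjusted p = 0.0366, adjusted p = 0.587 by limma). Its nearest values were 29.7 FPKM in OC3 and 28.1 FPKM in OT4, and the unadjusted p by limma ranged from 0.0189 to 0.128 over 16 alternatives. Per 100 FPKM of stromal markers it was at 4.06, 3.49 and 3.57 FPKM in OC and 3.46, 3.76, 3.55 and 3.92 FPKM in OT, and here the groups overlapped. Over the same uteruses the adipocyte markers were higher in OT, with 7 of 7 called, and so were 6 of 8 stratified epithelium markers. The 6 smooth muscle markers summed to 7750 to 9090 FPKM in OC and 9550 to 14500 FPKM in OT. Of these 6, 4 were above every OC uterus in every OT uterus, and 0 were called. The part of these tissues in the levels of Wnt5a and Emx2 was not tested.

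Wnt4 was the only one of the 8 with an estimate above 0 in the uterus. It was at 1.03 ± 0.233 FPKM in OC and 2.44 ± 1.31 FPKM in OT (SD, n = 3 and 4), a log2 difference of 1.02 (standard error 0.45, 95% interval -0.03 to 2.06, unadjusted p = 0.0551, adjusted p = 0.60 by limma). OT2 and OT3 were high, while OT4 at 1.13 FPKM lay within the OC range of 0.858 to 1.30 FPKM. Without OT4 the difference was 1.31 (unadjusted p = 0.0152 by limma), and without OT1 it was 1.19 (unadjusted p = 0.0372), and both pass the cutoffs. Leaving out OT2 or OT3 lowered it to 0.79 or 0.78, and leaving out OC1 to 0.91, none of which passed.

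Pax8 and Pax2 had estimates below -1 with wide errors. The Pax8 difference was -1.14 (standard error 0.69, unadjusted p = 0.137 by limma), with OT1 at 2.36 FPKM and OT4, at 23.6 FPKM, above 2 of the 3 OC uteruses. Without OT4 it was -1.57 (unadjusted p = 0.042 by limma) and passed the cutoffs, while without OT1 it shrank to -0.48 (unadjusted p = 0.206). The Pax2 difference was -1.10 (standard error 1.15, unadjusted p = 0.367 by limma) and rested on 1 library: without OT1 it was 0.06. In the OT1 uterus the 7 epithelial markers summed to 278 FPKM, against 266 to 658 FPKM in the other uteruses. Epcam (17.4 FPKM), Cdh1 (10.8 FPKM) and Cldn3 (28.4 FPKM) were lowest there, Cldn4 (20.0 FPKM) was highest there, and Krt8, Krt18 and Krt19 lay within the range of the others. Wnt7a, at -0.47 (standard error 0.60), had its highest value of 3.70 FPKM in the OC1 uterus, which also held the highest Pax2 at 16.4 FPKM, the highest sum of epithelial markers at 658 FPKM and the highest Ovgp1 at 169 FPKM.

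**Figure D2:**
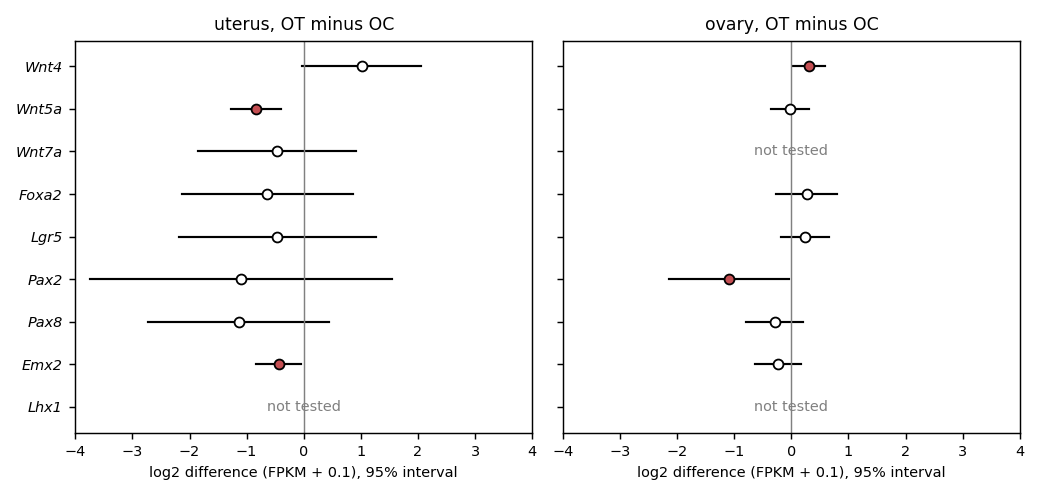
OT minus OC difference of each gene in the uterus and the ovary, on the log2(FPKM + 0.1) scale, with 95% intervals from limma. Filled points have an unadjusted p of at most 0.05. In the uterus these are Wnt5a at -0.84 and Emx2 at -0.44, and in the ovary Wnt4 at 0.30 and Pax2 at -1.09, and the interval of Pax2 in the uterus runs from -3.74 to 1.55.

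Foxa2 and Lgr5 split the uteruses into the same sets, with both treatments in each set. The Foxa2 difference was -0.64 (95% interval -2.14 to 0.86, with -0.18 without OT1 and -1.07 without OT3) and the Lgr5 difference -0.46 (-2.18 to 1.26, with 0.03 without OC3 and -1.16 without OC1), with overlapping groups in both. Foxa2 was at 2.31 FPKM or more in OC2, OC3, OT3 and OT4 and at 1.38 FPKM or less in OC1, OT1 and OT2. Lgr5 was at 0.856 FPKM or more in the first set and at 0.584 FPKM or less in the second. The secreted gland protease Prss29 was at 51.5, 97.9, 16.8 and 72.4 FPKM in OC2, OC3, OT3 and OT4, and at 0.891, 2.44 and 1.15 FPKM in OC1, OT1 and OT2. The same 4 mice had the higher Prss29 in the ovary library too, from 5.23 to 22.1 FPKM, with 0.539 to 0.960 FPKM in the other 3. The 4 mice had also the higher Hoxa10 in the ovary library, 23.4 to 53.4 FPKM, against 0.572 to 6.09 FPKM. Not every gland marker followed these sets in the uterus. Spink1 was higher in OC2, OC3, OT3 and OT4, but Cxcl15 was at 2.77 FPKM in OC1, above 1.39 FPKM in OC2 and 1.42 FPKM in OC3. The sets were seen in the values and were not tested.

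**Figure D3:**
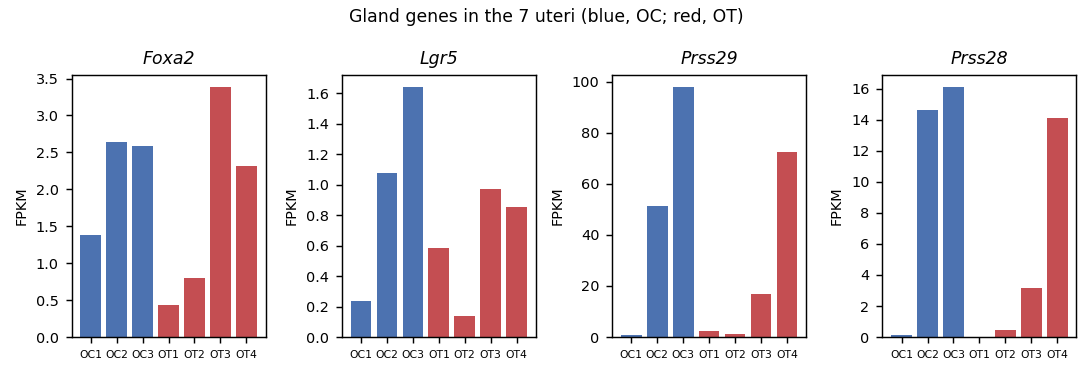
Foxa2, Lgr5 and the gland proteases Prss29 and Prss28 in the 7 uteruses, in FPKM, with a bar for each mouse (blue, OC, and red, OT) and axes from 0. All 4 genes are higher in OC2, OC3, OT3 and OT4 than in OC1, OT1 and OT2, so both treatments are found on either side.

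Of the other genes of the 8 lists, 92 were tested in the uterus, and 3 were called higher and 2 lower in OT, 5.43%. Over all 14151 tested genes the share was 2.9%. Lef1, a transcription factor that acts on Wnt targets and is itself a target, was at 3.90, 3.87 and 4.13 FPKM in OC and 0.544, 1.00, 2.19 and 3.22 FPKM in OT, with no overlap (log2 difference -1.41, standard error 0.53, unadjusted p = 0.0283 by limma). Sox9, an epithelial and gland factor, was at 9.66 to 21.4 FPKM in OC and 2.02 to 11.9 FPKM in OT (-1.41, standard error 0.59, unadjusted p = 0.0447 by limma). The Wnt inhibitor Sfrp5 was higher (2.68, standard error 0.80), at 0.083 FPKM or listed at 0 in OC and at 0.181 to 1.87 FPKM in OT. Sfrp5 met the filter of 0.5 FPKM only through its OT values, so its call is no separate support. Hoxa13, the positional gene of the lowest part of the tract, was at 0.443, 0.609 and 1.98 FPKM in OC and 6.70, 0.958, 7.55 and 2.47 FPKM in OT (1.89, standard error 0.76). Hoxa13 and Sfrp5 were highest in OT1, OT3 and OT4, as was the sum of the stratified epithelium markers. The part of that tissue in these differences was not tested. Axin2, a widely used readout of canonical Wnt signalling, was at 10.8, 14.2 and 19.7 FPKM in OC and 9.19, 13.3, 10.9 and 17.1 FPKM in OT, with overlap. The adjusted p of Lef1, Sox9, Sfrp5 and Hoxa13 lay between 0.537 and 0.599 by limma.

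By list, the 20 intracellular components had 1 gene called lower (Lef1) and a median difference of -0.14. The 9 tested feedback targets had the same gene and a median of -0.39. Of these 9, 3 had an unadjusted p of at most 0.05 by limma, Lef1 (-1.41) and Tcf7 (-0.82) lower and Ccnd1 (0.55) higher. Nkd1 (0.33) was also above 0. The 31 tested duct and patterning genes, 25 of them not among the 9, had 2 called higher and a median of -0.52. The 16 gland genes, 14 of them not among the 9, had 2 called lower and a median of -0.66. The duct list also holds stromal markers, among them Hoxa10 and Esr1, and all these medians include OT1. No ligand, receptor or R-spondin axis gene was called, with medians of 0.04, -0.01 and -0.07. The list medians stand beside 0.01 over all tested genes. Ptch1, the receptor and target of hedgehog signals from the uterine epithelium to the stroma, had the smallest p of the lists (-0.98, standard error 0.22, unadjusted p = 0.00202, adjusted p = 0.396 by limma) just under the 2-fold cutoff, and was chosen for mention after its value was seen. It was at 29.4, 23.7 and 22.1 FPKM in OC and 8.79, 12.4, 14.2 and 16.0 FPKM in OT, again with every OT uterus lower.

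**Figure D4:**
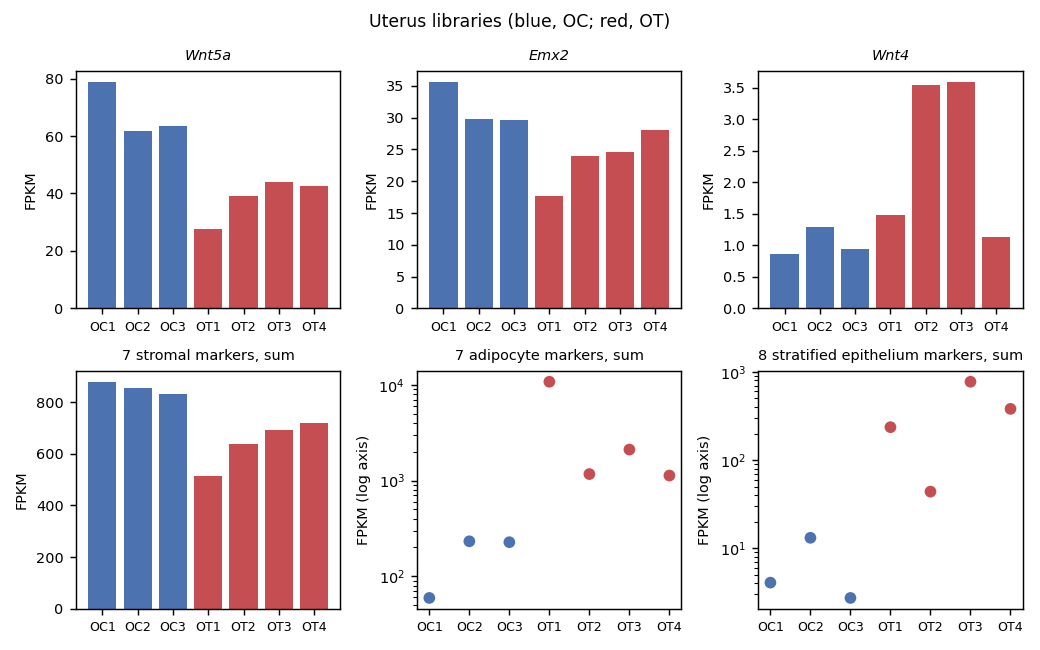
Wnt5a, Emx2 and Wnt4, and the summed levels of stromal, adipocyte and stratified epithelium markers, in the 7 uteruses (blue, OC, and red, OT), in FPKM. The sums of adipocyte and stratified epithelium markers are points on log axes and the rest are bars from 0. Wnt5a, Emx2 and the stromal sum are lower in all 4 OT uteruses, and OT1 has the lowest value of each.

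In the ovary, 1 of the 7 tested genes, Pax2, passed the cutoffs, where 0.451% of all 14415 tested genes did. Wnt4 and Pax2 had an unadjusted p of at most 0.05, as did 4.51% of tested genes, and Wnt4 alone had groups that did not overlap, as did 5.91%. No adjusted p was under 0.05 by limma (smallest 0.477, with 650 genes at an unadjusted p of at most 0.05). Wnt7a was below 0.5 FPKM on average and was not tested.

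Pax2 was at 1.23 ± 0.683 FPKM in OC and 0.516 ± 0.252 FPKM in OT ovaries (SD, n = 3 and 4), a log2 difference of -1.09 (standard error 0.46, unadjusted p = 0.0438, adjusted p = 0.997 by limma). OC2 was high at 2.01 FPKM, and OT3 at 0.792 FPKM was above OC3 at 0.769 FPKM. The call was lost without OC1, OC2, OT1 or OT2, and without OC2 the difference was -0.70 (unadjusted p = 0.194 by limma). It was also lost with a pseudocount of 1 (-0.53), with the replicate block (-1.23, unadjusted p = 0.0568 by limma) and in a single fit of all 14 libraries (-1.09, unadjusted p = 0.271). Hoxa10 was at 3.92, 53.4 and 27.7 FPKM in OC1, OC2 and OC3 and at 0.572, 6.09, 48.9 and 23.4 FPKM in OT1 to OT4. The highest Pax2 and the highest Hoxa10 were both in OC2 and the lowest of each in OT1, but OC1 had the second highest Pax2 with low Hoxa10. Ovgp1 was at 863, 852 and 568 FPKM in OC and 424, 725, 570 and 942 FPKM in OT, highest in OT4. The part of tract tissue in the Pax2 difference was not tested.

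Wnt4 was at 50.5 ± 5.37 FPKM in OC and 62.6 ± 9.57 FPKM in OT ovaries (SD, n = 3 and 4), and each OT ovary was above each OC ovary, with 54.8 FPKM in OT3 next to 54.0 FPKM in OC3. The log2 difference was 0.30 (standard error 0.12, unadjusted p = 0.0358, adjusted p = 0.997 by limma), a 1.23-fold difference below the cutoff, and without OC2 it was 0.21 (unadjusted p = 0.14). The remaining ovary differences were small and had overlapping groups: Wnt5a -0.02 (95% interval -0.35 to 0.30), Foxa2 0.27 (-0.27 to 0.80), Lgr5 0.24 (-0.18 to 0.66), Pax8 -0.29 (-0.79 to 0.21) and Emx2 -0.24 (-0.63 to 0.16). Of the 89 other list genes tested in the ovary, 0 were called by limma, with unadjusted p of at most 0.05 for Fzd4 (0.29), Tcf7 (0.40), Wnt10b (0.24), Wnt11 (-0.52) and Ryk (-0.22).

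Whether the OT minus OC difference itself differed between the organs was tested by fitting the 14 libraries together. None of the 8 tested genes passed a difference of 1 at an unadjusted p of at most 0.05, where 1.98% of 14913 genes did. Wnt5a alone had an unadjusted p of at most 0.05, as did 5.18% of genes. Its uterus difference was lower than its ovary difference by a log2 value of -0.82 (standard error 0.25, 95% interval -1.35 to -0.28, unadjusted p = 0.00586, adjusted p = 0.846 by limma). For Wnt4 the value was 0.71 (-0.30 to 1.73) and for Emx2 -0.20 (-0.75 to 0.35). Of 96 other list genes, 6 were called. Sfrp5 (3.39), Wnt10a (1.90) and Msx2 (1.65) were higher in the uterus contrast, and Lef1 (-2.01), Tcf7 (-1.22) and Sfrp2 (-1.03) lower, all with an adjusted p of 0.846 by limma. Wnt10a was listed at 0 in every OC uterus and at 0.0882 to 0.736 FPKM in OT uteruses. Sfrp5 was at 0.0781 to 0.443 FPKM in the ovaries. Such levels lie near the 0.1 added before the log. Sfrp5 and Msx2 were tested only through their uterus level and Wnt10a only through its ovary level. Tcf7, a partner of beta-catenin like Lef1, was at 3.14 to 5.38 FPKM in OC and 1.89 to 3.96 FPKM in OT uteruses.

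For each of the 8 genes above 0.5 FPKM in at least 1 organ, the 3 genes with the most similar profile were found by the root mean square of the difference between log2 profiles, each centred on its mean, over the 14 libraries. Emx2 had the closest, Gng12 (0.16), Col6a4 (0.19) and Ece2 (0.19), followed by Wnt5a with Shc2, Sema6a and Itpr2 (0.18 each). The profile of Wnt7a was closest to those of the epithelial junction gene Cldn7 (0.43), Il17re (0.46) and Mecom (0.47), and that of Pax2 to Lrrc31 (0.59), Slc5a9 (0.59) and Slc25a48 (0.61). Pax8 was nearest to D430019H16Rik (0.31), Psd2 (0.33) and Slc25a27 (0.33), and Foxa2 to Gpr137c (0.36), Ern1 (0.38) and Tmem86b (0.38). The ovary-high genes were nearest to others of that kind, Wnt4 to Caly (0.34), Plekhg4 (0.46) and 2610028H24Rik (0.48), and Lgr5 to Atp6v1c2 (0.45), Bpifb5 (0.53) and Megf10 (0.54). These values describe the profiles, most of whose spread lies between the organs.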

How the data were processed

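RNA-seq values of the ovary and uterus of 3 OC and 4 OT mice (7 mice, 14 libraries) were used, grouped by their labels. The authors trimmed strand-specific, rRNA-depleted reads with Skewer 0.2.2, mapped them to mm10 with STAR 2.5 and deposited FPKM per gene from Cufflinks 2.2.1. FPKM is relative within a library, so a large rise of a few genes lowers the rest, and the depth is unknown. Cuffdiff, used in the study, needs reads. Symbols and positions were matched for all 21853 identifiers in GENCODE M21. Counting by strand separates the genes that overlap Wnt5a, Lgr5, Pax2, Pax8 and Emx2 on the other strand, and Mir6405 lies within Pax2 on its own strand.

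Here limma 3.58.1 in R 4.3.3 (eBayes with a trend) was fitted to log2(FPKM + 0.1) over all genes whose mean was 0.5 FPKM or more, each tissue alone for OT minus OC, with Benjamini-Hochberg adjustment over all tested genes. The tissue comparison and its difference between treatments used all 14 libraries. The fits were tested on simulated data. Other steps used Python 3.11.15, numpy 2.4.6, pandas 2.3.3 and matplotlib 3.10.9. Alternatives changed the pseudocount, the filter, the scaling or the eBayes step, fitted all libraries at once, added replicate blocks or left out each mouse in turn. The 9 genes and the lists were chosen with earlier results of these data known. The text names all 9 genes, the called genes of each list (up to 6 by size for treatment and 4 for tissue), and the 3 genes of the most similar profile. Ptch1, Axin2, Amhr2, Lgr6, Tcf7, Ccnd1, Nkd1, Cxcl15, Spink1 and the list genes given for the ovary were named after their values were seen. 1 called gene of the lists is counted but not reported here.

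Ovary and uterus of 1 mouse carry the same designation in the labels. Their deviations from the group means correlated at 0.08 to 0.255 (mean 0.153), and those of different mice of 1 group at -0.308 to 0.29 (mean -0.057). The main tissue fit treated the ovary and uterus of 1 mouse as separate libraries, and the mouse was used as a block in an alternative. No label says how the mice of a group were housed or sampled. The OT minus OC p-values within a tissue weigh a difference against the spread between these mice only.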

Additional observations from a re-analysis of the deposited data

Results flagged for a closer look

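Pax2 in the OT1 uterus, at 0.217 FPKM, lay far from the other OT uteruses, which were at 7.53 to 7.76 FPKM. Its gap to the next value was 0.991 of the range of the group, above Dixon's 95% critical value of 0.829 for 4 samples. Of 15 groups of values tested in this way it was the 1 that passed, and chance passes about 1 in 20. The same library had the lowest Pax8 (2.36 FPKM), Foxa2 (0.438 FPKM) and Emx2 (17.7 FPKM) of the uteruses.

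The OT minus OC value of Wnt5a in the uterus minus that in the ovary was -0.82 on the log2 scale (standard error 0.25). Its unadjusted p was 0.00586, but it missed the size cutoff of 1 and its adjusted p was 0.846 by limma, so a difference between the organs was not called. All 4 OT uteruses lay below the 3 OC uteruses, while the ovary groups overlapped at 29.5 to 35.5 FPKM in OC and 25.9 to 40.3 FPKM in OT.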

How the results depend on the processing

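With 3 and 4 mice a group, no OT minus OC difference of these genes had an adjusted p under 0.05, and an interval that includes 0 does not show that a gene did not differ. In the uterus the count of called genes was 0, and became 2 with the replicate block, which leaves out OT4 (Wnt4 at 1.31 and Pax8 at -1.57), 1 in a single fit of all 14 libraries (Wnt4), and 0 to 2 when each mouse was left out. In the ovary the count was 1, and became 0 with a pseudocount of 1, 0 with a mean of at least 1 FPKM, 0 with the replicate block, 0 in a single fit of all libraries, and 0 to 1 when each mouse was left out. The labels give same-numbered OC and OT mice no stated link beyond the number. Their correlations were 0.001 to 0.371 in the ovary (mean 0.141, with -0.048 for different numbers). In the uterus they were 0.01 to 0.106 (mean 0.064, with -0.019 for different numbers). 2 of 6 ovaries and 5 of 6 uteruses correlated best with their own number. Whether the number marks anything shared was not tested. The block by mouse kept the tissue count at 5, and a mean of at least 0.5 FPKM in both tissues, which Wnt7a missed, made it 4 of 7. Rescaling to TPM moved the median of all genes by -0.24 between tissues, by -0.14 in the uterus and by -0.15 for the difference between responses. Some uncalled values turned sign. When each mouse was left out, the uterus difference was -0.77 to 0.14 for Wnt7a, -1.16 to 0.03 for Lgr5 and -1.49 to 0.06 for Pax2, and the ovary difference of Wnt5a was -0.14 to 0.07 (0.01 with the block). The tissue difference of Foxa2 was -0.21 to 0.20, and -0.21 with TPM. The difference between the responses was -0.39 to 0.64 for Wnt7a (-0.12 with a pseudocount of 1) and -0.66 to 0.93 for Pax2 (0.03 with a pseudocount of 0.01). Wnt7a between tissues fell short of the cutoff with a pseudocount of 1, at 0.75. The causes were not tested.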
